A study of Maylandia zebra with 2 samples.

Results

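The nuclei of cichlid oral lamina were read for 4 genes whose enzymes make or use reactive oxygen: *mpx*, *nox1*, *ncf4* and *cybb*. They were chosen by gene symbol, with earlier results of these data known, and each symbol matched exactly 1 of the 28622 features, so 4 features are described. The features are ENSMZEG00005018137 (*mpx*), ENSMZEG00005007154 (*nox1*), ENSMZEG00005006368 (*ncf4*) and ENSMZEG00005014381 (*cybb*). The tissue was the soft oral lamina beside the replacement teeth of *Maylandia zebra*, a Lake Malawi cichlid, taken from the upper jaw and from the lower jaw with 1 library each. The labels give no genotype, treatment, age or number of animals. Nuclei were freed by lysis, sorted as DAPI-positive singlets and counted with droplet-based RNA sequencing. Both jaws share 1 deposited matrix whose barcodes end in suffix 1 or 2, and no file says which suffix is which jaw, so all nuclei form 1 pooled sample without replicates and no p-value is given.

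The authors kept 1296 nuclei with 1423040 UMIs (molecule tags, so that 1 UMI stands for 1 captured RNA molecule) and sorted them into 12 clusters under 6 class names. The median kept nucleus had 832.5 UMIs, 753 in suffix 1 and 919 in suffix 2, and 1 barcode sequence occurred in both suffix sets. Levels are UMIs summed over a cluster and scaled to CPM (UMIs of the gene per 1000000 UMIs of that cluster). Ranges in parentheses are exact 95% intervals for counting error only, so they leave out the spread between animals and between nuclei. Because levels in different clusters rest on different depths, 1 UMI equals 2.17 CPM in cluster 0, 7.34 CPM in cluster 4 and 10.9 CPM in cluster 5. Clusters 9, 10 and 11 are so small that 1 UMI equals 37.8 CPM or more.

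The NADPH oxidases are membrane enzymes that pass electrons from NADPH to oxygen and so make superoxide. *cybb* codes for the catalytic subunit of the oxidase of phagocytes, and *ncf4* codes for one of the cytosolic subunits that join it when the cell is activated. *nox1* codes for a sister of the catalytic subunit, which in mammals is best known from the lining of the colon and needs its own organizer and activator proteins. *mpx* codes for a heme peroxidase that uses hydrogen peroxide, and in zebrafish it is the standard marker gene of neutrophils. Such oxidants serve in killing microbes, and at epithelial surfaces also as signals.

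The 4 genes fell into 2 patterns. *mpx* and *nox1* were read mainly in cluster 4, one of the 5 clusters that the authors call Epithelial, while *ncf4* and *cybb* were read mainly in cluster 5, which the authors call Pigmented, and in Immune clusters. Cluster 4 held 120 of the 137 *mpx* UMIs (87.6%) and 98 of the 146 *nox1* UMIs (67.1%). Cluster 5 held 59 of the 88 *ncf4* UMIs (67.0%) and 31 of the 80 *cybb* UMIs (38.8%). These levels by cluster are the values by which the genes were chosen, so they are described here and not tested.

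**Figure D1:**
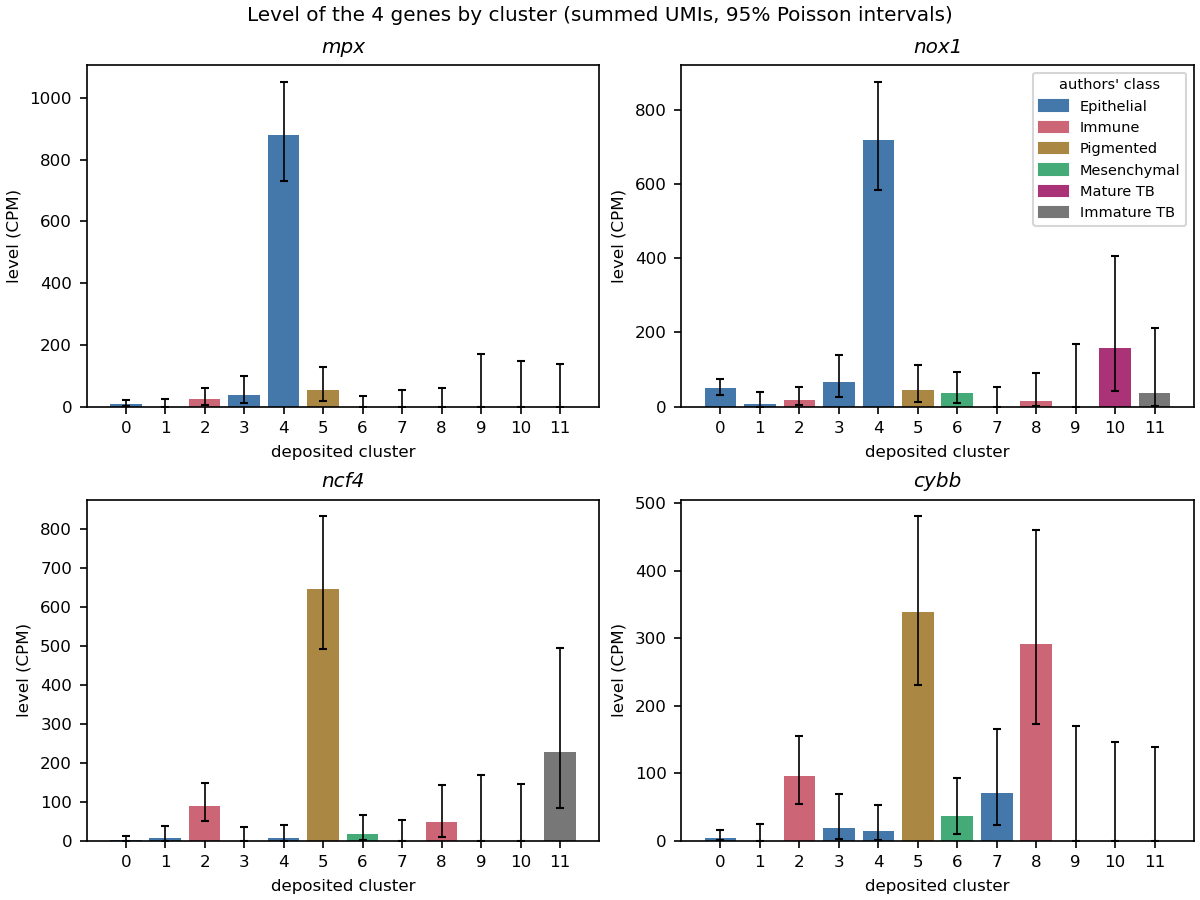
Level of each gene (CPM, linear axis) in the 12 deposited clusters, with bars coloured by the authors' class and error bars giving 95% Poisson intervals for counting error. *mpx* and *nox1* stand highest in cluster 4 at 880 and 719 CPM, *ncf4* stands highest in cluster 5 at 646 CPM, and the *cybb* intervals of clusters 5 and 8 overlap.

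The peroxidase gene *mpx* had the narrower distribution of the epithelial pair. Its level was 880 CPM (730–1053) in cluster 4, and the next clusters were 5 with 54.7 CPM (17.8–128), 3 with 38.3 CPM (10.4–98.0), 2 with 23.9 CPM (6.50–61.1) and 0 with 8.68 CPM (2.36–22.2). Each of those 4 clusters rested on 4 or 5 UMIs, and neighbours among them did not differ beyond their counting error. The other 7 clusters had 0 UMIs of *mpx*, which allows up to 20.5 CPM in cluster 1, 27.2 CPM in the Mesenchymal cluster 6 and 138 CPM in the small Immune cluster 9. Cluster 4 was 16.1-fold (6.71–50.5) above cluster 5 and 36.9-fold (14.0–138) above the Immune cluster 2. Against the other Epithelial clusters together, which held 8 UMIs, it was 86.1-fold (42.3–204) higher.

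The oxidase gene *nox1* peaked in the same cluster, and a larger part of its UMIs than of those of *mpx* lay outside it. Its level was 719 CPM (584–876) in cluster 4. The order below it was 159 CPM (43.2–406) in cluster 10, named Mature TB, then 67.0 CPM (26.9–138) in cluster 3 and 49.9 CPM (31.6–74.9) in cluster 0. The Mature TB level rested on 4 UMIs in 3 of 21 nuclei, and its ratio to cluster 3 was 2.37 (0.508–9.32), while cluster 3 gave 1.34 (0.487–3.23) over cluster 0, so these neighbours do not differ beyond counting error. Cluster 4 exceeded Mature TB 4.53-fold (1.71–17.0). Further down stood cluster 5 with 43.8 CPM (11.9–112) on 4 UMIs and clusters 11, 6, 2, 8 and 1 with 37.8, 36.3, 17.9, 16.2 and 6.84 CPM on 1 to 4 UMIs each, with every neighbour ratio's interval including 1. Clusters further apart in this order can differ, as cluster 0 exceeded cluster 1 7.30-fold (1.18–301). Cluster 4 was 16.4-fold (6.22–61.5) above cluster 5 and 40.2-fold (13.3–198) above cluster 2. Within the epithelium it was 14.4-fold (9.08–23.8) above cluster 0, in which 23 *nox1* UMIs were spread over 17 of 234 nuclei, and 10.7-fold (5.02–27.4) above cluster 3. The levels of clusters 0 and 3 lay within the interval of the Mesenchymal cluster 6, 36.3 CPM (9.89–92.9), and are not told apart from it. Clusters 7 and 9 had 0 UMIs, which allows up to 42.4 and 138 CPM at the floor of 3 UMIs, or 52.2 and 170 CPM by the exact interval.

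The cytosolic subunit gene *ncf4* went with cluster 5. Its level there was 646 CPM (491–833), followed by 227 CPM (83.2–494) in cluster 11, named Immature TB, and by 89.5 CPM (50.1–148) in Immune cluster 2. The Immature TB level came from 6 UMIs in 4 of 18 nuclei, 5 of them in suffix 1, and cluster 5 exceeded it 2.85-fold (1.23–8.07), while its ratio to cluster 2 of 2.53 (0.805–6.91) includes 1. Cluster 5 was 7.21-fold (4.04–13.7) above cluster 2 and 13.3-fold (4.33–66.3) above Immune cluster 8, which had 3 UMIs. In cluster 4 there was 1 UMI of *ncf4*, giving a ratio of cluster 4 to cluster 5 of 0.0114 (0.000283–0.0658) and of cluster 4 to cluster 2 of 0.0820 (0.00195–0.533).

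The catalytic subunit gene *cybb* was read in clusters 5, 8 and 2, with 31, 18 and 16 UMIs. Its level was 339 CPM (230–481) in cluster 5 and 291 CPM (173–460) in Immune cluster 8, a ratio of 1.16 (0.631–2.21), so these clusters did not differ beyond counting error. Cluster 8 also held 20 of the 26 UMIs of *foxa3*, a transcription factor gene on the goblet cell list, so its class name does not describe all of its genes. Cluster 2 stood lower at 95.5 CPM (54.6–155), and cluster 8 exceeded it 3.05-fold (1.47–6.4). The Epithelial cluster 7 had 70.7 CPM (23.0–165), but all 5 of its UMIs lay in 1 nucleus. Cluster 4 had 2 UMIs of *cybb*, a ratio to cluster 5 of 0.0433 (0.00502–0.170) and to cluster 2 of 0.154 (0.0171–0.654). In cluster 8 *cybb* had 18 UMIs in 9 nuclei and *ncf4* had 3 UMIs in 3 nuclei.

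The peak clusters of *mpx*, *nox1* and *ncf4* were the same in both suffix sets, and that of *cybb* was not. In cluster 4, *mpx* stood at 1071 CPM (869–1307) in suffix 1 and 502 CPM (319–754) in suffix 2, and *nox1* at 850 CPM (671–1063) and 459 CPM (284–701). The *mpx* intervals of the suffix sets do not overlap, and most of its UMIs, 97 of the 120 in cluster 4, lay in suffix 1, which supplied 89 of the 129 nuclei. In cluster 5, *ncf4* stood at 656 CPM (457–912) and 631 CPM (404–939), and *cybb* at 281 CPM (157–464) and 421 CPM (240–683). In cluster 8, *cybb* stood at 156 CPM (57.3–340) in suffix 1, below cluster 5, and at 514 CPM (265–898) in suffix 2, above it, with overlapping intervals in both sets. Of the 12 *cybb* UMIs of cluster 8 in suffix 2, 6 lay in 1 nucleus, so the change of peak leans on that nucleus. Against cluster 2, the ratio of cluster 4 in suffix 1 alone was 0.164 (0.00365–1.28) for *ncf4* and 0.230 (0.0245–1.08) for *cybb*, so the lower level of cluster 4 was not beyond counting error there. All 5 *mpx* UMIs and all 4 *nox1* UMIs of cluster 5 belonged to suffix 1. In suffix 2 the comparison of cluster 4 with cluster 5 therefore gives only a lower bound. With the floor of 3 UMIs in cluster 5, cluster 4 was 6.37-fold higher for *mpx* and 5.82-fold higher for *nox1*. These values leave out the counting error of cluster 4, and the lower ends of the exact intervals were 4.78-fold and 4.33-fold. Against all other kept nuclei, cluster 4 was 66.6-fold (39.9–118) higher for *mpx*, 52.2-fold (29.6–98.9) in suffix 1 and 101-fold (30.6–527) in suffix 2.

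Few nuclei carried each gene, and depth differs between clusters, so shares of nuclei are given as counted and at 1 depth. In cluster 4, 23 of 129 nuclei (17.8%, 11.7–25.5, Clopper-Pearson) had an *mpx* UMI and 44 (34.1%, 26.0–43.0) had a *nox1* UMI. The corresponding shares were 2.04% (0.248–7.18) and 3.06% (0.636–8.69) in cluster 5 and 1.66% (0.343–4.77) and 0.552% (0.0140–3.04) in cluster 2. Mesenchymal nuclei were taken as the level that free RNA can reach, which is an assumption, since free RNA was not measured. Of these 85 nuclei, 0 had *mpx*, which allows up to 3.53% at a floor of 3 nuclei or 4.25% by the exact interval, and 3 had *nox1* (3.53%, 0.734–9.97). The shares of both genes in clusters 5 and 2 lay below the upper bounds of the Mesenchymal shares and are not told apart from them. Median depth was 753 UMIs in cluster 4, 810 in cluster 5, 744 in cluster 2 and 986 in cluster 6.

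Cut to 500 UMIs per nucleus, the expected share with *mpx* was 15.3% of the 111 nuclei of cluster 4 that reach that depth, against 1.60% in cluster 5 and 1.03% in cluster 2. For *nox1* it was 25.6%, against 1.37% and 0.441%. The share with *nox1* in the deep cluster 0 fell from 7.26% as counted to 2.39%. In cluster 5, 36 of 98 nuclei (36.7%, 27.2–47.1) had *ncf4*, or 26.9% at 500 UMIs, and 19 (19.4%, 12.1–28.6) had *cybb*, or 12.7%. For *cybb* the share in cluster 8 was 18% (8.58–31.4) as counted and 10.6% at 500 UMIs, again close to cluster 5. The shares in cluster 2, 4.42% (1.93–8.52) for *ncf4* and 7.18% (3.88–12) for *cybb*, overlapped those of Mesenchymal nuclei, 2.35% (0.286–8.24) and 3.53% (0.734–9.97), which are deeper. At 500 UMIs the shares were 3.77% in cluster 2 and 0.554% in cluster 6 for *ncf4*, and 4.59% and 1.76% for *cybb*. Levels in cluster 6 were 18.2 CPM (2.20–65.6) for *ncf4* and 36.3 CPM (9.89–92.9) for *cybb*, on 2 and 4 UMIs, and their intervals overlap those of cluster 2. Overlap of separate intervals does not show that levels are equal. No ratio of cluster 2 to cluster 6 was computed for these genes, so a difference beyond counting error remains possible.

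**Figure D2:**
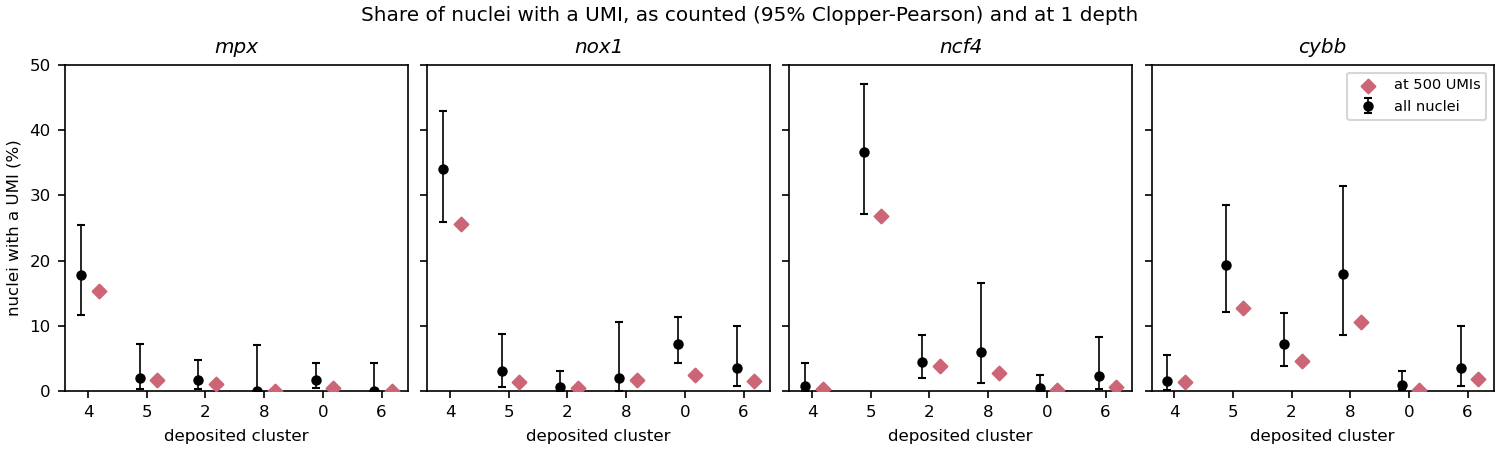
Percent of nuclei with at least 1 UMI of each gene in clusters 4, 5, 2, 8, 0 and 6, as counted (black, with 95% Clopper-Pearson intervals) and as computed for every nucleus cut to 500 UMIs (red). Cutting the depth lowers the *nox1* share of cluster 4 from 34.1% to 25.6% and leaves it above the other clusters shown.

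The 4 genes also differed in how their UMIs were spread over nuclei. Of the 23 *mpx* nuclei in cluster 4, 14 had 4 or more *mpx* UMIs and 5 had 1. The highest nuclei held 18, 16, 12 and 10 UMIs, all of them in suffix 1, and these 4 together carried 56 of the 120. In the second of them *mpx* made up 1.18% of the 1359 UMIs of the nucleus. *nox1* was spread more evenly, with 18 of its 44 nuclei at 1 UMI, 7 at 4 or more and a highest value of 6. *ncf4* in cluster 5 had 25 of 36 nuclei at 1 UMI and a highest value of 5, and *cybb* had no nucleus above 3 there. Without the nucleus richest in *mpx* in each cluster, the log2 ratio of cluster 4 to cluster 5 was 5.11, compared with 4.01 with all nuclei, since cluster 5 lost 3 of its 5 UMIs in 1 nucleus.

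**Figure D3:**
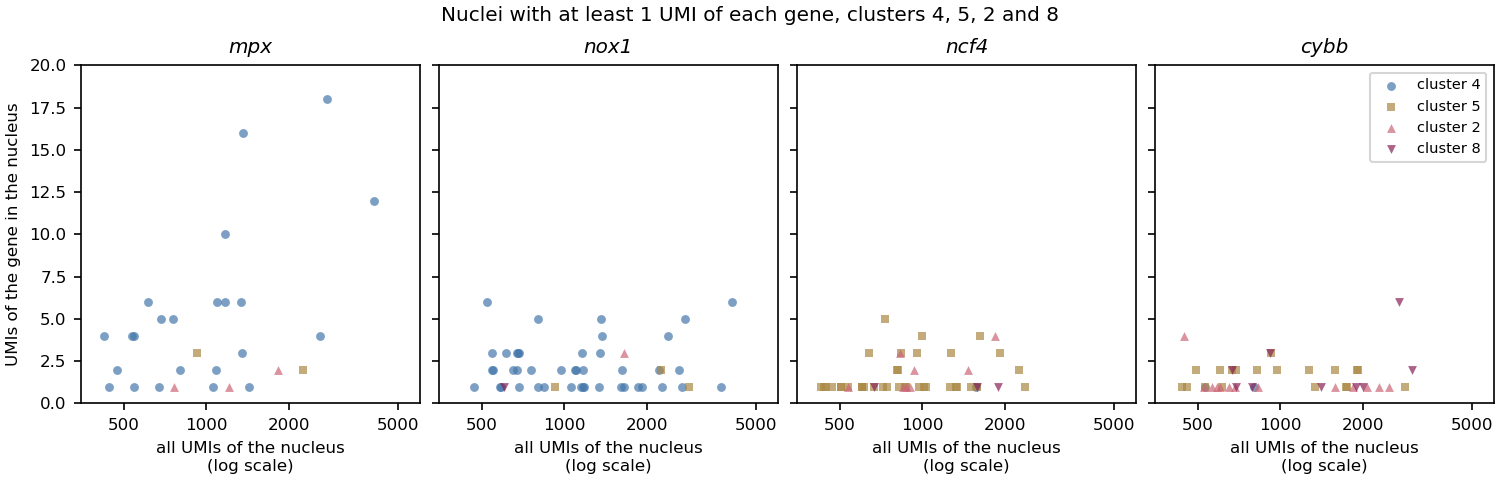
UMIs of each gene in every nucleus that has at least 1 (linear axis) against all UMIs of that nucleus (log axis), for clusters 4, 5, 2 and 8. *mpx* reaches 18 UMIs in 1 nucleus of cluster 4, while *nox1* does not exceed 6 and *ncf4* in cluster 5 does not exceed 5.

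Whether *mpx* and *nox1* meet in the same nuclei of cluster 4 was then read off directly. *nox1* was found in 15 of the 23 nuclei with *mpx* (65.2%) and in 29 of the 106 without it (27.4%). Nuclei with *mpx* were deeper, with a median of 1059 UMIs against 749.5, but the level of *nox1* per UMI also differed: 1630 CPM in nuclei with *mpx* and 494 CPM in those without, a ratio of 3.30 (2.16–5.01). Conversely, 100 of the 120 *mpx* UMIs of the cluster lay in the 44 nuclei with *nox1*. The *mpx* level was 1708 CPM in these nuclei and 257 CPM in those without *nox1*, a ratio of 6.64 (4.08–11.3). The nuclei with 18, 16, 12 and 10 *mpx* UMIs were all among them and carried 56 of the 100, so the ratio leans on few nuclei. In cluster 5, *ncf4* and *cybb* shared 9 nuclei, 47.4% of the 19 with *cybb* and 25% of the 36 with *ncf4*. There the *cybb* level was 457 CPM in nuclei with *ncf4* and 266 CPM in those without, a ratio of 1.72 with an interval that includes 1 (0.794–3.72). In cluster 4 only 1 nucleus had *ncf4*, without *mpx*, and 2 had *cybb*, 1 of them with *mpx*. So few nuclei cannot show whether these genes avoid each other. These splits of nuclei were chosen after their values were seen.

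Since *mpx* is a neutrophil gene in zebrafish, markers of other cell types were counted in cluster 4 beside it. Of the 22 symbols on the barrier epithelium list, 17 matching features had at least 10 UMIs, and 11 of these were at least 2-fold higher in cluster 4 than in all other kept nuclei. The same holds for 15.3% of all 12230 features with at least 10 UMIs. The list's median log2 ratio was 1.71, against −0.11 over all features. *evpla*, which codes for the envelope protein envoplakin, was 16.7-fold (13.8–20.4) higher, the keratin gene *krt4* 15.1-fold (13.1–17.6), the claudin gene *cldn7b* 9.44-fold (6.30–14.1) and *ppl*, which codes for periplakin, 7.42-fold (6.20–8.89). These genes helped to form the cluster and describe its identity.

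Leukocyte markers were counted in the same nuclei. Of 10 general leukocyte genes with at least 10 UMIs, 0 were at least 2-fold higher in cluster 4, beside 15.3% of all features. With only 10 genes, this count of 0 is not told apart from that share. Lower by 2-fold or more were 5 of the 10, beside 31.8% of all features, and the list's median log2 ratio was −1.06. *lcp1*, an actin-bundling gene of leukocytes, had 0 of its 54 UMIs in cluster 4. *DOCK2*, a gene of leukocyte migration, had 10 of 444, a ratio of 0.217 (0.104–0.404) to all other kept nuclei. *ptprc*, the pan-leukocyte CD45 gene, had 3 of 41, a ratio of 0.745 (0.147–2.35), so it was not lower beyond counting error. Of the remaining neutrophil markers, *csf3r* (the G-CSF receptor gene) and *mmp9* (a granule protease gene) had 6 UMIs each in the kept nuclei, 0 of them in cluster 4 and 5 and 4 of them in cluster 5. Only *il1b* and *padi2* of that list, *mpx* aside, reached 10 UMIs, and they gave ratios of 1.5 (0.571–3.36) and 0.358 (0.130–0.798). Summed without *mpx*, the neutrophil list stood at 95.4 CPM in cluster 4, within the range of 0 to 295 CPM over the 12 clusters, which is highest in cluster 5. The 13 UMIs of this sum in cluster 4 were 7 of *il1b* and 6 of *padi2*. *padi2* had 77 of its 164 UMIs in the Epithelial cluster 0, so the sum cannot show whether neutrophils are present. General leukocyte markers summed to 279 CPM in cluster 4, against 3073 CPM in cluster 2 and 47.9 to 198 CPM in the other Epithelial clusters, so cluster 4 was the highest of these. T and lymphoid cell markers summed to 917 CPM in cluster 4, against 6612 CPM in cluster 2 and 586 CPM in cluster 0. The mast cell and eosinophil list stood at 44 CPM in cluster 4, and *epx*, the eosinophil peroxidase gene, had 0 UMIs in all kept nuclei.

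The same lists were summed in the *mpx* nuclei alone. Barrier markers were found in all 23 of them and in 104 of the 106 nuclei without *mpx*. These markers summed to 12114 CPM in nuclei with *mpx*, against 17570 CPM in those without and 2966 CPM in cluster 2. General leukocyte markers summed to 222 CPM in nuclei with *mpx*, from 6 UMIs, and to 293 CPM in those without. Macrophage markers gave 1 UMI in the 23 nuclei. T and lymphoid cell markers were found in 9 of the 23 and in 33 of the 106 without *mpx*, and summed to 1074 CPM against 878 CPM. The neutrophil list without *mpx*, which rests on *il1b* and *padi2* in this cluster, stood at 111 CPM on 3 UMIs against 91.5 CPM. The part of cells of other types in these *mpx* levels was not tested beyond these sums. Among single barrier genes, *krt4* (ratio 0.509, 0.375–0.678) and *ppl* (0.661, 0.437–0.970) were lower in nuclei with *mpx* than in those without. The ratios of *evpla* (0.861, 0.623–1.17), *perp* (0.832, 0.641–1.07) and *cldn7b* (0.431, 0.134–1.08) also lay below 1, with intervals that include 1. In nuclei with *nox1*, by contrast, *krt4* was higher than in those without, at a ratio of 1.53 (1.27–1.84), and *krt5*, a keratin gene of basal epithelium, was lower, at 0.701 (0.609–0.805).

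The partners of the NOX1 enzyme were read next. NOX1 works with the small membrane subunit encoded by *cyba*, with an organizer encoded by *noxo1* genes and with an activator encoded by *noxa1*. Of the 5 NOX genes and partners with at least 10 UMIs besides *nox1*, 2 were at least 2-fold higher in cluster 4 (*noxo1a* and *noxo1b*), beside 15.3% of all features. *noxo1b* had 38 of its 65 UMIs in cluster 4, at 279 CPM and 13.3-fold (7.90–22.6) above all other nuclei, with 34 of the 38 in suffix 1. *noxo1a* was 4.44-fold (1.66–10.9) higher on 8 of 25 UMIs. *noxa1* had only 8 UMIs in all, 2 each in cluster 4 and in Mature TB. *NOX4*, *nox5* and the shared GTPase gene *RAC1* gave ratios of 1.57 (0.171–7.07), 0.858 (0.0199–5.90) and 0.410 (0.0483–1.57) in cluster 4. *duox* and *duox2*, which code for the dual oxidases, had 1 and 0 UMIs in all kept nuclei. In cluster 5, 3 of the 5 were at least 2-fold lower than in all other kept nuclei, beside 33.0% of all features. They were *NOX4* and *noxo1a* with 0 UMIs there and *noxo1b* at 0.463 (0.0548–1.74). At least 2-fold higher was 1, *RAC1* at 2.49 (0.942–5.60), beside 16.1% of all features. The intervals of all of these include 1.

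*cyba* is shared by the NOX1 enzyme and the phagocyte oxidase, and here it sat with *nox1*. It had 23 of its 37 UMIs in cluster 4, where it was 15.5-fold (7.65–32.6) higher than elsewhere. Cluster 5 had 4 UMIs of *cyba*, a level 3.86-fold (1.32–15.3) below that of cluster 4, and Immune clusters 2 and 8 had 0. The upper limits of their *cyba* ratios to all other kept nuclei were 0.785 in cluster 2 and 2.31 in cluster 8. The 0 in the smaller cluster 8 therefore does not show a lower level there. Within cluster 4 the partners were read in a part of the 44 nuclei with *nox1*, *noxo1b* in 13 and *cyba* in 11. Nuclei with *nox1* and either partner were deeper, with a median of 1370 UMIs for each pair. Nuclei with neither gene of the pair had 688 UMIs for *noxo1b* and 670 for *cyba*. The *noxo1b* level was 530 CPM in nuclei with *nox1* and 90.0 CPM in those without, a ratio of 5.89 (2.54–15.8), and 13 of 19 nuclei with *noxo1b* also had *nox1*. For *cyba* the ratio was 3.04 (1.18–8.73), with 11 of 17 nuclei shared.

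**Figure D4:**
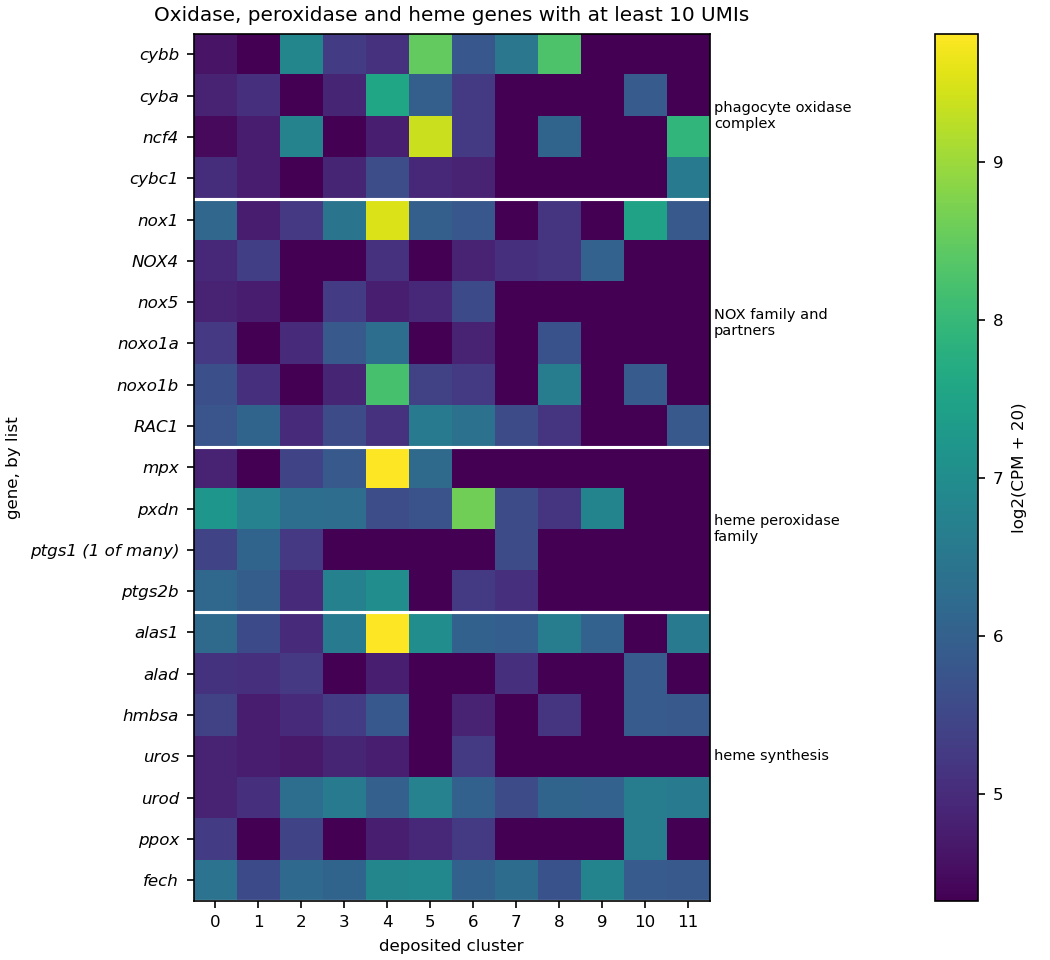
Level of every gene of the oxidase, peroxidase and heme lists with at least 10 UMIs, as log2(CPM + 20), in the 12 deposited clusters. *mpx*, *nox1*, *noxo1b*, *cyba* and *alas1* are brightest in cluster 4, while *ncf4* and *cybb* are brightest in cluster 5.

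The rest of the phagocyte oxidase was thinly counted. Of 9 features on its list, 4 had at least 10 UMIs, among them *ncf4* and *cybb*, whose ratios of cluster 5 to all other kept nuclei, 29.6 (18.7–48.0) and 9.22 (5.68–14.7), belong to the levels by which they were chosen. Of the other 2, *cyba* and *cybc1*, 0 were at least 2-fold higher in cluster 5, where 16.1% of all features were. Both were at least 2-fold higher in cluster 4, where 15.3% of all features were, *cybc1*, a chaperone gene of the enzyme, on 4 UMIs there (3.15, 0.740–10.4). The organizer gene *ncf1* had 9 UMIs in all, 4 in cluster 2 and 3 in cluster 5. Both features named for the GTPase gene *rac2* had 0 UMIs, which allows up to 2.11 CPM over all kept nuclei.

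The class name of cluster 5 was set against its markers. Of 15 symbols on the pigment cell list, 7 matching features had at least 10 UMIs and 3 of these were at least 2-fold higher in cluster 5, beside 16.1% of all features, led by *mitfa*, which codes for a transcription factor of pigment cells, at 44.6-fold (25.4–82.2). The pigment enzyme gene *dct* had 1 of its 22 UMIs there and *pnp4a*, an iridophore gene, 1 of 22. Beside the same 16.1%, 4 of 5 macrophage features were at least 2-fold higher, among them the scavenger receptor gene *stab1* at 48.0-fold (36.7–63.3) and *csf1ra*, which codes for the macrophage growth factor receptor, at 37.2-fold (16.6–91.4). For general leukocyte genes the count was 8 of 10, and for T and lymphoid cell markers 4 of 9. The T and lymphoid list summed to 4530 CPM in cluster 5, against 4738 CPM for the macrophage list there and 6612 CPM for the T and lymphoid list in cluster 2. The clusters were formed from the expression of these same nuclei, so the counts only describe the cluster. Within cluster 5, *mitfa* was read at 514 CPM in nuclei with *ncf4* and 603 CPM in those without (ratio 0.851, 0.453–1.55), and *stab1* at 2083 CPM and 2910 CPM (0.716, 0.536–0.949). In nuclei with *cybb*, *csf1ra* had 1 UMI of 23, a ratio of 0.147 (0.00357–0.911), *mitfa* a ratio of 0.345 (0.107–0.863) and *stab1* 0.524 (0.351–0.760). The macrophage list gene *spi1b* lay above 1 at 1.91 (0.780–4.41), with an interval that includes 1. Macrophage markers summed to 2737 CPM in nuclei with *cybb* and 5355 CPM in those without, and general leukocyte markers to 2876 CPM and 2005 CPM.

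Heme is the cofactor of the *mpx* peroxidase and of the catalytic oxidase subunits, and its synthesis genes were read beside them. *alas1*, which codes for the enzyme of the first step, had 119 of its 184 UMIs in cluster 4, at 873 CPM and 17.3-fold (12.7–23.8) above all other nuclei. Its level was 1071 CPM in suffix 1 and 481 CPM in suffix 2. Within cluster 4 it was 3.46-fold (2.29–5.34) higher in nuclei with *nox1* than in those without, and 2.84-fold (1.93–4.14) higher in nuclei with *mpx*. Of 7 measured members, 2 were at least 2-fold higher in cluster 4, beside 15.3% of all features: *alas1*, and *hmbsa* at 2.48 (0.725–6.88) on 5 UMIs with an interval that includes 1. The gene of the last enzyme, *fech*, gave 1.70 (0.866–3.1). The list's median log2 ratio was 0.58.

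Other heme peroxidases had their own places. Of the 3 measured members besides *mpx*, 1 was at least 2-fold higher in cluster 4 and 2 at least 2-fold lower, beside 15.3% and 31.8% of all features. The higher one was *ptgs2b*, a gene for a prostaglandin-making cyclooxygenase, at 3.22-fold (1.66–5.89). Of the 15 *ptgs2b* UMIs in cluster 4, 14 lay in 6 nuclei with *nox1* and 1 lay in 1 nucleus without it. Suffix 1 held 13 of the 15. *pxdn*, whose product crosslinks collagen IV in basement membranes, was lower in cluster 4 (0.276, 0.0740–0.722) and had its highest level, 372 CPM, in the Mesenchymal cluster 6. The larger of the *ptgs1* features, ENSMZEG00005002096, had 0 of its 23 UMIs in cluster 4 and is uncertain, since its name is shared by a copy.

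Genes of peroxide and superoxide handling showed no single direction in cluster 4. Their list mixes enzymes that remove these oxidants with regulators and genes of glutathione supply. Among 18 measured members, 5 stood at 2-fold or more above all other nuclei and 6 at 2-fold or more below, with a median log2 ratio of 0.33, while all features gave 15.3% and 31.8%. The 5 higher members include genes of each kind, while the 6 lower ones all code for removing enzymes. *prdx2*, a peroxiredoxin gene, was 3.41-fold (1.66–6.58) higher and *keap1a*, which codes for a sensor of oxidative stress, 2.83-fold (1.57–4.86). *prdx6* was lower at 0.403 (0.129–0.968). *gsr*, the glutathione reductase gene, gave 1.17 (0.602–2.09) and *nfe2l2a*, the gene of the transcription factor that *keap1a* restrains, 1.36 (0.859–2.08). In cluster 5, *prdx6* had 0 of its 122 UMIs.

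The genes whose pattern over the 12 clusters was most like each member were found by Pearson's r of log2(CPM + 20), among symbols with at least 50 UMIs. For *mpx* they were a feature named *lpcat4* (1 of many), ENSMZEG00005021145, with r = 0.917, *sec23b* with 0.886, *lss* with 0.884, *ppl* with 0.874 and *mctp2a* with 0.836. For *nox1* they were *CPNE8* with 0.931, the same *lpcat4* feature with 0.93, the tight junction genes *cldn7b* with 0.925 and *cgnl1* with 0.912, and *evpla* with 0.899. *mpx* and *nox1* had r = 0.782 with each other. For *ncf4* the nearest were *skila* with 0.891, a feature named *CTSS* (1 of many), ENSMZEG00005010627, with 0.882, *tmem106a* with 0.861, *cbfb* with 0.857 and *rap1aa* with 0.846. For *cybb* they were *hck*, a myeloid kinase gene, with 0.893, *ubash3bb* with 0.890, *cbl* with 0.867, *rasal2* with 0.865 and *camk1b* with 0.849. *ncf4* and *cybb* had r = 0.562, and each cross-pair lay between −0.187 and 0.0865. The clusters share 1 preparation and differ in depth, so these values only describe likeness over 12 points.

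Clusters rebuilt without the 4 genes and all other genes of the oxidase, peroxidase, heme, peroxide and myeloid lists, 80 features in all, placed the genes alike. Of 18 such clusters, the one that took 101 of the 129 nuclei of cluster 4 had the highest *mpx* level, 1021 CPM, and the highest *nox1* level, 795 CPM. The one that took 87 of the 98 nuclei of cluster 5 had the highest *ncf4* level, 691 CPM. *cybb* stood at 249 CPM there, rank 3 of the 18. Genes that vary with the left-out ones still took part in forming these clusters.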

How the data were processed

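The authors deposited raw UMI counts per gene and barcode. The matrix header and the submitters' processing notes name Cell Ranger 3.1.0. Nothing read here states the genome build, the alignment settings or the clustering rule, and coordinates are left out. The deposited metadata hold counts of UMIs and genes per barcode, cluster numbers, class names and a fraction named cyto from 0 to 1, given by the authors and not used in any result. On all 1381 barcodes the authors' mark for kept nuclei matches gene counts above 300 and below 2500, which left 1296.

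From these counts, UMIs were summed per cluster. Ratios carry exact conditional 95% intervals, levels exact Poisson intervals and shares Clopper-Pearson intervals. With 1 pooled sample no test was made. A count of 0 was bounded with a floor of 3 UMIs per cluster, or 3 nuclei for a share. These limits lie below the upper ends of the exact 95% intervals. Shares at 1 depth are exact expectations after drawing 500 (alternatively 800) UMIs per nucleus, with shallower nuclei left out. List members match a symbol with or without the suffix a or b, and count as measured from 10 UMIs. List medians add 0.5 UMI to each count. The ratio and thinning code was tested on simulated data. Doublets were left in, and Scrublet (expected rate 0.06) called 18 nuclei, left out as an alternative. Leiden clusters used 2000 variable genes, 30 components, 15 neighbours and resolution 1.0.

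The 4 genes and the lists were chosen with earlier results of these data known. Named genes were the 4 members, list members with at least 20 UMIs, all measured members of the oxidase, NOX and peroxidase lists, and for each member the 5 genes most like it. Others (*ncf1*, *rac2*, *noxa1*, *duox*, *duox2*, *epx*, *csf3r* and *mmp9*) were named after their values were seen, as were the splits of nuclei by a gene. Some list members are not reported here. Near-identical copies can share reads. Intervals came from scipy 1.17.1, clusters from scanpy 1.11.5 in Python 3.11.15, and R 4.3.3 ran edgeR 4.0.16 solely for the TMM scaling alternative.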

Additional observations from a re-analysis of the deposited data

Results flagged for a closer look

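Barcodes that the authors left out also held the genes, above the limit that a count of 0 allows. In the 44 barcodes with 300 genes or fewer, *mpx* stood at 1852 CPM (1275–2600) on 33 UMIs in 4 barcodes, and *nox1* at 337 CPM (124–733) on 6 UMIs. One of these barcodes held 23 *mpx* UMIs, 4.95% of its 465 UMIs, with 288 genes detected, just under the authors' limit. It also held 5 UMIs of *alas1*, 6 of *krt4*, 2 of *krt5* and 1 of *nox1*. It held 0 of the barrier genes *evpla*, *ppl* and *perp* and 0 of *noxo1b* and *cyba*. Counts were also 0 for *ptprc*, *lcp1*, *DOCK2*, *itgb2*, *csf3r* and *mmp9*. With 465 UMIs in all, a count of 0 says little about the level of a gene. Without it, *mpx* stood at 576 CPM in the remaining barcodes. *ncf4* had 0 UMIs in this set, which allows up to 168 CPM.

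In the 41 barcodes with 2500 genes or more, whose totals reach 134092 UMIs, *mpx* stood at 44.1 CPM, *nox1* at 69.9 CPM, *ncf4* at 48.6 CPM and *cybb* at 24.3 CPM. These levels were below the levels over all kept nuclei, 96.3, 103, 61.8 and 56.2 CPM. For *ncf4* the interval (33.3–68.6) includes the level over kept nuclei, so it was not lower beyond counting error. No file gives these 85 barcodes a cluster.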

How the results depend on the processing

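All 120 ratios recomputed under other settings (TMM scaling, a mean over nuclei, shallow or deep nuclei, ribosomal protein genes, Scrublet calls or the richest nucleus left out, 1 suffix only, rebuilt clusters) kept their direction and stayed within the counting interval of the reported ratio, or bounded it. The intervals of the ratio of cluster 4 to cluster 2 came to include 1, with an upper log2 end of 0.36 (suffix 1) and 0.53 (rebuilt clusters) for *ncf4* and of 0.11 (suffix 1), 0.23 (suffix 2) and 0.54 (rebuilt) for *cybb*, where 2 or fewer UMIs in cluster 4 face 10 or fewer in cluster 2. The *ncf4* log2 ratio moved from −3.61 to −2.61 in suffix 1 and −2.37 in rebuilt clusters, and that of *cybb* from −2.70 to −1.69 in rebuilt clusters. The log2 ratio of cluster 4 to cluster 5 ranged from 3.52 (suffix 1) to 5.11 for *mpx* and from 3.50 (suffix 1) to 5.05 (mean over nuclei) for *nox1*, and from −7.15 to −5.89 for *ncf4* and −5.39 to −3.67 for *cybb*, bounds aside. At 500 UMIs per nucleus the *nox1* share of cluster 4 was 25.6% and the *ncf4* share of cluster 5 was 26.9%, below the intervals as counted, since fewer UMIs are read.

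Counts of list members from 2-fold moved where lists are small. In cluster 4, the phagocyte oxidase count of 2 was 1 with a minimum of 20 UMIs, with an interval above 1 required, and in suffix 2. The heme synthesis count was 1 with an interval above 1 required, and the heme peroxidase count 1 in suffix 2. The general leukocyte count of 0 was 1 with a minimum of 1 UMI and 1 in suffix 2. With a minimum of 1 UMI, cluster 5 had 5 phagocyte oxidase genes and 7 macrophage features in place of 2 and 4. Depth limits any statement on clusters 9, 10 and 11. No paired analysis was possible because nuclei carry no jaw and the pooled sample has no replicates.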
